A study of Mus musculus with 2 samples.

Results

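The genes described are those that encode the proteasome, the protease complex that degrades ubiquitin-tagged proteins, in single cells of the mouse fetal liver. Members were taken by symbol: all genes named Psma, Psmb, Psmc, Psmd, Psme or Psmf followed by a number. This rule, set with earlier results of these data known, gave 44 of the 27998 genes in the count tables. All 44 were found in the GRCm38 annotation, on 16 chromosomes, and 43 had a UMI (a unique molecular identifier, 1 count for each captured RNA molecule) in both libraries. The cells came from 1 wild-type C57BL/6 (C57BL/6J in the study's methods) liver at E12.5, freed from debris, dead cells and doublets by fluorescence activated cell sorting. Cells of that liver were loaded as 2 technical replicate libraries on the 10x Chromium system, and no treated or mutant sample was included. The libraries held 5480 and 5057 kept cells with 51969226 and 62738015 UMIs. Cell type names were the authors': hematopoietic progenitors (HPSC), early erythroid cells (Ery), erythroblasts (Eryb), primitive erythroblasts (EryP), megakaryocytes (Mk), granulocytes (G), monocytes and Kupffer cells (Mo/KC), endothelial cells (EC) and hepatoblasts (Hepa), with the definitive erythroid cells also split into subclusters Ery 1 to Ery 6. These names came from clustering the same cells, and with 1 liver no test between cell types was possible. Every difference given here is therefore a description of both libraries, and intervals are 95% exact Poisson or Clopper-Pearson intervals that cover counting error only.

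The 26S proteasome joins a barrel-shaped 20S core to a 19S cap. The core is built from rings of alpha subunits (Psma genes), which form the gate, and beta subunits (Psmb genes), of which Psmb5, Psmb6 and Psmb7 carry the constitutive protease sites. The cap combines ATPases that unfold and feed the substrate (Psmc genes) with non-ATPase subunits that bind and remove ubiquitin (Psmd genes). In immune cells the catalytic subunits can be replaced by Psmb8, Psmb9 and Psmb10, which favour peptides fit for MHC class I presentation. Psme1 and Psme2 form the activator PA28 alpha-beta, Psme3 the nuclear PA28 gamma, Psme4 is the activator PA200, and Psmf1 encodes the inhibitor PI31. Maturing erythroid cells degrade most of their proteome and devote their RNA to globin.

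Of 20 marker genes for the 9 cell types, 17 were highest in the named type in both libraries. Myb was higher in G than in HPSC, Klf1 was highest in Eryb in library 1 but in Ery in library 2, and Gata1 was highest in Mk. Globin transcripts made up 2.1% and 4.8% of UMIs in Ery but 36.7% and 59.2% in Eryb (libraries 1 and 2), and 58.1% and 78.5% in Ery 6. Levels are given as CPM, the UMIs of a gene per 1000000 UMIs of the cell group, so that globin enters each denominator. UMIs outside globin and UMIs per cell are given beside them. The T cell marker Cd3e had 0 UMIs in the kept cells, but Nkg7, the other T or NK marker, had 543 and 521. Nkg7 was highest in G, at 132 and 133 CPM. The mast cell markers Cpa3 and Ms4a2 summed to 169 and 116 CPM in G. The stellate cell markers Col1a1, Col3a1 and Dcn summed to 152 and 166 CPM in Mk. Whether G and Mk held other cells was not tested. The libraries shared 31 cell barcodes.

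The start regions of 4 catalytic genes are shown because the constitutive and immune subunits differed in where they were expressed. Windows run from 250 bases before to 50 bases after the RefSeq start on GRCm38.p6, in the direction of transcription. Capitals mark matches on either strand to TGACNNNGC, the core of the antioxidant-type element, or to CCAAT, which reads ATTGG on the other strand, searched as plain letters. Psmb5 (chr14:54617946-54618245, minus strand) and Psmb6 (chr11:70525107-70525406, plus strand) are constitutive, and Psmb9 (chr17:34187281-34187580, minus strand) and Psmb10 (chr8:105938343-105938642, minus strand) are immune subunits.
Psmb5: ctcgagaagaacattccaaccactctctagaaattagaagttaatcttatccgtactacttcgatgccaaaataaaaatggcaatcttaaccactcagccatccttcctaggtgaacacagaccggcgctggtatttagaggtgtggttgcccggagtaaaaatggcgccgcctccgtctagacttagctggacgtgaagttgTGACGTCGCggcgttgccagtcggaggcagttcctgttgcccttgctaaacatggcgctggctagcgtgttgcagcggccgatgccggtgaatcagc
Psmb6: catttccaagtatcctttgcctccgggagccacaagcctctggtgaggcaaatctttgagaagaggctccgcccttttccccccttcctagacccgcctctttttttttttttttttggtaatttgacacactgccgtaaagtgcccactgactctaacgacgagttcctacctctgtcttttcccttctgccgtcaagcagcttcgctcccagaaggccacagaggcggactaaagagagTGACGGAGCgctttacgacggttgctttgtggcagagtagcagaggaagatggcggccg
Psmb9: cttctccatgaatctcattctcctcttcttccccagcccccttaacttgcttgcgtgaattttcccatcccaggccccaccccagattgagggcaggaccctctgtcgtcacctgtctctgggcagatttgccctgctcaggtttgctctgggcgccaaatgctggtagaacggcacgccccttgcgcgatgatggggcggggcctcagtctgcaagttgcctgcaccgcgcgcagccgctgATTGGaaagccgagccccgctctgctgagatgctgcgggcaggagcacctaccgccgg
Psmb10: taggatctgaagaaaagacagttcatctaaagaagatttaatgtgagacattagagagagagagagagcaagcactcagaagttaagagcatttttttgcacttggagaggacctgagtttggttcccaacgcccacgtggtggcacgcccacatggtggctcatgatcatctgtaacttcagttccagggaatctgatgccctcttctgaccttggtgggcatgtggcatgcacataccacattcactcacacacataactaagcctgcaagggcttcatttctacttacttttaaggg
TGACNNNGC began 47 bases before the start of Psmb5 (position -47) and at position -9 of Psmb6, and neither motif was matched in the window of Psmb10. No match to either motif was found for Psmb7, the other constitutive site, which is not shown. The genes shown thus do not mark a split between constitutive and immune subunits. Across the 37 members with a RefSeq window (40 windows in all), TGACNNNGC was found in 15% of windows against 12.4% of all 32851 windows in the table, and CCAAT in 35% against 37.4%. The members thus held these letters about as often as other genes did. The Psmb8 window lies inside the gene as GENCODE draws it and is not printed. The annotated Psmb9 gene overlaps Tap1 on the opposite strand, and 8 of the 44 genes overlap another annotated gene on the same strand.

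The question put to these data was how much of its RNA each liver cell type devotes to the proteasome. The summed UMIs of the 31 genes of the 26S particle (14 core and 17 cap genes) were highest in Ery in both libraries. They reached 12084 CPM in library 1 (interval 12035 to 12134) and 11204 CPM in library 2 (11155 to 11253), or about 1.2% and 1.1% of all UMIs. EC came next with 9350 CPM (8983 to 9727) and 9639 CPM (9385 to 9898). HPSC (8707 and 8381 CPM), Mo/KC (8701 and 8775 CPM) and Mk (8437 and 8963 CPM) changed places between the libraries, so that their order was not resolved. G gave 7870 and 7508 CPM and Hepa 7842 and 7693 CPM, likewise without a fixed order. Eryb followed with 6196 and 3937 CPM and EryP was lowest with 1834 and 1309 CPM. The place of Eryb depended on globin. Outside globin Eryb stood at 9786 and 9652 CPM, against 8848 and 8635 CPM in HPSC. On that scale Eryb came next after Ery in library 1, and after Ery and EC in library 2. Ery was still highest outside globin, with 12349 and 11771 CPM, and EryP lowest, with 7865 and 7496 CPM. Of the 31 genes, 24 had their highest level in Ery in both libraries and 2 had it in EC.

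**Figure D1:**
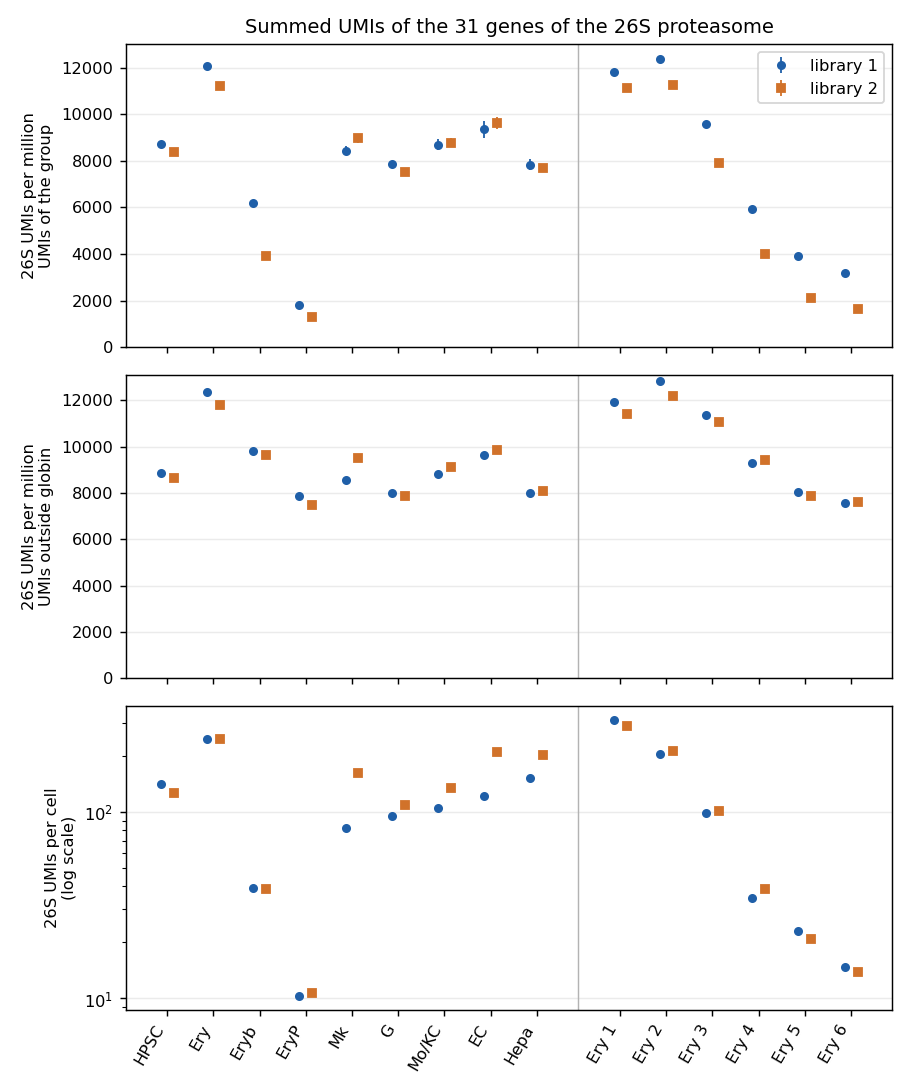
Summed UMIs of the 31 genes of the 26S proteasome in 9 cell types (left of the line) and 6 erythroid subclusters (right), for library 1 (circles) and library 2 (squares): in CPM with 95% Poisson intervals (top), in CPM outside globin (middle), and per cell on a log axis (bottom). Ery, Ery 1 and Ery 2 are highest by CPM, Ery 6 is lowest of the subclusters in all 3 panels, and the span is narrower outside globin.

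By CPM, with globin in the denominator, the spread between cells was smaller than the gap between early and late erythroid cells. Among single Ery cells the middle quartiles of the 26S share ran from 10922 to 13246 CPM in library 1 and from 9764 to 12287 CPM in library 2. Among Ery 6 cells they ran from 2104 to 3983 CPM and from 975 to 2180 CPM, and did not overlap those of Ery. Outside globin the summed groups lay closer, at 12349 and 11771 CPM in Ery against 7566 and 7623 CPM in Ery 6. The spread between cells is not given on that scale.

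Along the definitive erythroid subclusters the 26S share by CPM was slightly higher in Ery 2 than in Ery 1 and then lower at each step. Ery 2 against Ery 1 gave log2 ratios of 0.07 and 0.01 by CPM and 0.10 and 0.09 outside globin. Per cell they were -0.61 and -0.43. The share was 11801 and 11149 CPM in Ery 1, 12388 and 11263 CPM in Ery 2, and 9581 and 7914 CPM in Ery 3. It then stood at 5920 and 4022 CPM in Ery 4, at 3919 and 2099 CPM in Ery 5, and at 3173 and 1639 CPM in Ery 6. By CPM all 31 genes were lower in both libraries from Ery 2 to Ery 3, from Ery 3 to Ery 4 and from Ery 4 to Ery 5. From Ery 1 to Ery 2, 19 genes were higher and 8 lower in both libraries, and from Ery 5 to Ery 6, 23 were lower and 6 higher. Globin went from 3.3% and 7.4% of UMIs in Ery 2 to 51.1% and 73.3% in Ery 5, which lowers the CPM of other genes. Outside globin the summed log2 ratios were -0.17 and -0.14, then -0.29 and -0.24, then -0.21 and -0.26 over the steps from Ery 2 to Ery 5. The share of all genes that were lower at each step is not given here, so these counts are not read as particular to the 26S genes.

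How far the 26S share dropped depended on what it was measured against. Ery 6 against Ery 1 gave a log2 ratio of -1.89 in library 1 and -2.77 in library 2 (mean -2.33). Outside globin the log2 ratios were -0.66 and -0.58, from 11929 to 7566 and from 11420 to 7623 CPM outside globin. Per cell they were -4.39 and -4.38, from 311 to 14.8 UMIs in library 1 and from 288 to 13.8 UMIs in library 2. The direction was the same on the 3 scales, and the libraries differed least where globin was left out or cells were counted. Ery 6 cells also held fewer UMIs in all, with medians of 4378 and 7882 against 26146 and 25977 in Ery 1. The lowest count in a kept cell was 504 UMIs in library 1 and 4387 in library 2. Medians and UMIs per cell of the libraries thus cover different ranges of cells. Fewer UMIs for a gene in a cell and a lower capture of that cell's RNA cannot be told apart here.

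Gene by gene, 42 of the 44 members had at least 50 UMIs over Ery 6 and Ery 1 in each library. A gene was called when it differed at least 1.5-fold in the same direction in both libraries. None of the 42 was called higher in Ery 6 and 39 were called lower, in a background where 6.2% of 7811 genes were called higher and 81.7% lower. Lower levels were thus the rule for all genes, whose median log2 ratio was -3.06 (-2.58 in library 1 and -3.50 in library 2), and each gene is read against that median. The 31 genes of the 26S particle were all called lower with a median of -2.18, which was 0.88 above that of all genes. Of these 31, 23 lay above the all-gene median in both libraries and 5 below it.

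**Figure D2:**
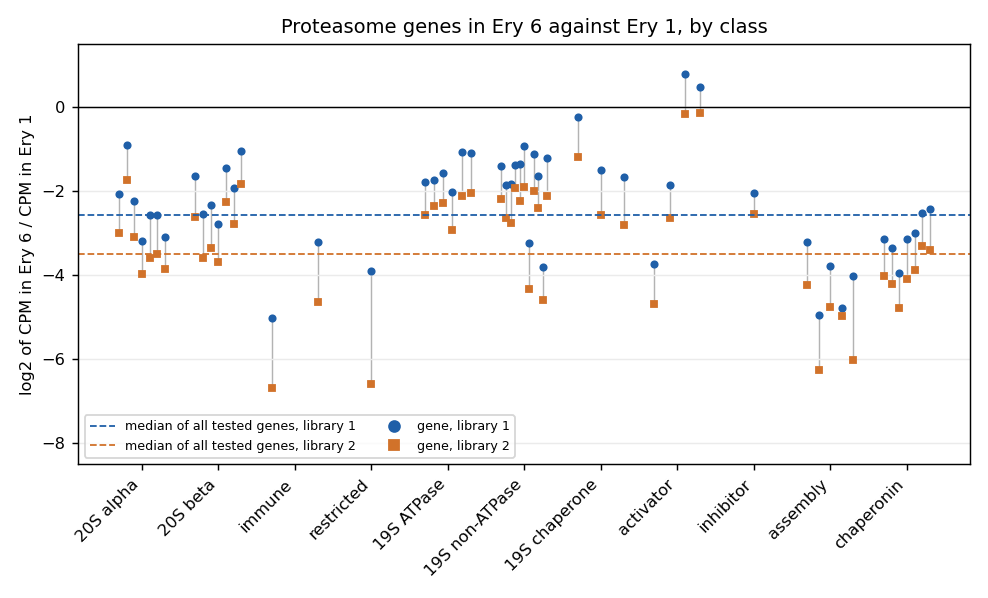
Log2 ratio of CPM in Ery 6 to CPM in Ery 1 for each gene with at least 50 UMIs in both libraries, by class; circles are library 1, squares library 2, a grey line joins the values of 1 gene, and dashed lines are the medians of all tested genes. Most cap genes lie above the dashed lines, the 5 genes of the core assembly list lie below them, and 2 activator genes lie near 0.

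The alpha ring genes lay at the all-gene median, with a class median of -3.04. Psma4 went from 477 to 52.7 CPM in library 1 and from 429 to 27.4 CPM in library 2 (mean log2 ratio -3.58). Psma7 went from 914 to 107 CPM and from 907 to 63.1 CPM (-3.47). Psma2 was the least reduced of all 31 genes, from 621 to 330 CPM and from 576 to 172 CPM (-1.33). Psma1 (-2.54) also lay above the all-gene median and Psma6 (-3.04) on it. Psma2 overlaps the protein-coding AW209491 on the same strand, so its count may hold reads of that gene.

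The beta ring genes were less reduced, with a class median of -2.36. Of the constitutive protease sites, Psmb7 and Psmb5 lay above the class median and Psmb6 on it. Psmb7, the trypsin-like site, went from 405 to 197 CPM and from 365 to 103 CPM (-1.43). Psmb5, the chymotrypsin-like site, went from 458 to 168 CPM and from 452 to 93.6 CPM (-1.86). Psmb6, the caspase-like site, went from 499 to 131 CPM and from 507 to 73.0 CPM (-2.36). All 3 lay above the all-gene median. The structural subunits Psmb4 (-3.23) and Psmb2 (-3.08) lay at or just below it, and Psmb1 (-2.13) above it.

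The cap ATPases had a class median of -1.99, and all 6 lay above the all-gene median in both libraries. Their range was narrow, from -2.47 for Psmc4 to -1.57 for Psmc6. Psmc6 went from 245 to 115 CPM and from 235 to 56.6 CPM, Psmc5 had a ratio of -1.60 and Psmc1 one of -2.18.

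The non-ATPase cap subunits spread most, with a median of -1.81 and 9 of 11 above the all-gene median. Psmd2, a scaffold subunit that receives ubiquitin shuttles, went from 161 to 84.7 CPM and from 148 to 39.7 CPM (-1.41). Psmd4, a ubiquitin receptor, went from 293 to 135 CPM and from 289 to 72.8 CPM (-1.55), and the other large scaffold Psmd1 had a ratio of -1.81. Psmd1 overlaps the protein-coding Gm21972 on the same strand, so its count may hold reads of that gene. Psmd7 and Psmd3 stood apart from the other cap genes. Psmd7, the partner of the deubiquitinase Psmd14 in the cap, went from 597 to 42.7 CPM and from 589 to 24.5 CPM (-4.20), while Psmd14 itself went from 231 to 89.9 CPM and from 221 to 46.9 CPM (-1.80). Psmd3 went from 201 to 21.4 CPM and from 204 to 10.1 CPM (-3.78).

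The chaperones that assemble the core were reduced more than the particle. All 5 genes of the core assembly list (Pomp and Psmg1 to Psmg4) were called lower, beside 81.7% of all genes. Their median log2 ratio was -4.88, a difference of -1.82 from the all-gene median. Psmg1 went from 141 to 4.57 CPM and from 132 to 1.72 CPM, and Pomp, which acts in the maturing core, from 433 to 46.9 CPM and from 425 to 22.7 CPM. The cap assembly chaperones, which belong to the Psmd symbols, were different. Psmd5 (-2.04) and Psmd9 (-2.24) were called lower and lay above the all-gene median. Psmd10, also known as gankyrin, was not called. It went from 57.1 to 48.7 CPM in library 1 and from 51.6 to 22.5 CPM in library 2. As a comparison group, 7 genes of the cytosolic chaperonin, another large ATP-driven complex, had a median of -3.58 and 85 ribosomal protein genes one of -3.48.

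Genes that work with the cap differed among themselves. Rad23b, which carries ubiquitinated proteins to the cap, was called lower (-3.70 and -4.81). Of 6 cap-bound proteins 5 were called lower, beside 81.7% of all genes, while the deubiquitinase Usp14 was at 0.43 and -0.41. Uba1, the ubiquitin-activating enzyme, was at 0.38 and -0.40 and was not called. Of 4 genes for transcriptional control of the proteasome, Nfe2l2 (-2.05) and Ddi2 (-3.10) were called lower, and Nfe2l1 had too uneven a ratio to be called (-0.29 and -2.19).

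The balance of core to cap UMIs also differed along the lineage. UMI counts are not divided by gene length, so only changes of this quotient between cell groups are read, not its size. The quotient was 1.80 and 1.79 in Ery 1, 1.69 and 1.67 in Ery 2, 1.57 and 1.58 in Ery 3, 1.38 and 1.41 in Ery 4, and 1.25 and 1.23 in Ery 5. It was 1.40 and 1.37 in Ery 6, above Ery 5 in both libraries. The log2 difference between Ery 6 and Ery 1 was -0.36 and -0.39, and unlike the CPM share it does not depend on globin.

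In HPSC, Mo/KC, G and Hepa the quotient was higher than in Ery 1. It stood at 2.23 and 2.21 in HPSC, 2.24 and 2.18 in Mo/KC, 2.13 and 2.08 in G, and 2.09 and 2.06 in Hepa, whose intervals partly overlap. EC (1.73 and 1.78), Mk (1.82 and 1.78) and Ery (1.74 and 1.73) lay close together and Eryb was lowest with 1.46 in both libraries. EryP, with 1.90 (1.72 to 2.1) and 2.05 (1.82 to 2.31), was above the late definitive subclusters, on 1757 and 1264 UMIs in all.

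**Figure D3:**
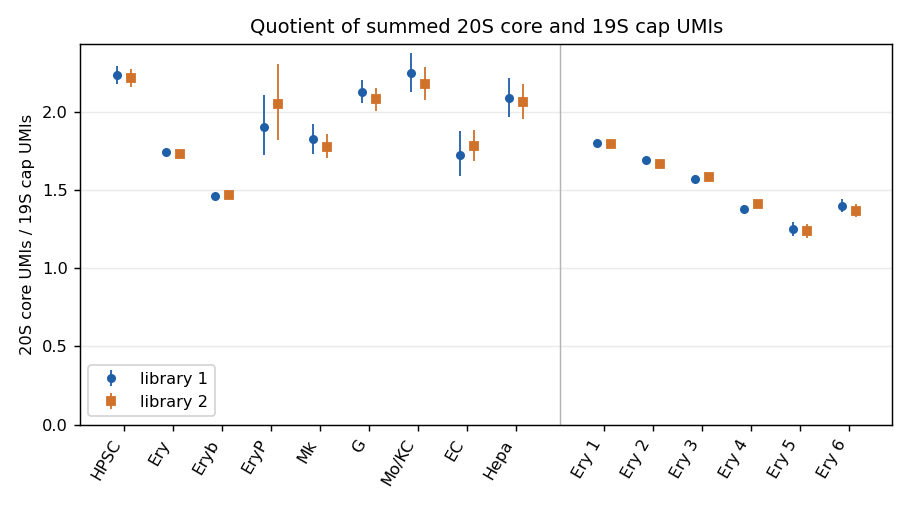
Summed UMIs of the 14 core genes divided by those of the 17 cap genes in 9 cell types (left) and 6 erythroid subclusters (right), with 95% intervals; circles are library 1 and squares library 2. The quotient is near 2.2 in HPSC and Mo/KC, and steps down from 1.80 and 1.79 in Ery 1 to 1.25 and 1.23 in Ery 5.

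Core and cap genes also differed in how far they were reduced in HPSC against Ery. The 26S share was lower in HPSC by a log2 ratio of -0.47 and -0.42. None of the 14 core genes was called in either direction, whereas 11 of the 17 cap genes were called lower in HPSC. The background was 14.4% of 8992 genes called lower and 23.4% called higher. All 14 core genes and 16 of the 17 cap genes lay below the all-gene median in both libraries. The summed core had log2 ratios of -0.35 and -0.30, and the summed cap of -0.71 and -0.65. Psmc2, a cap ATPase, was at 127 and 122 CPM in HPSC against 336 and 295 CPM in Ery. Psmd7 was at 252 and 261 CPM against 560 and 556 CPM. Psmd8 was the exception, at 328 and 287 CPM in HPSC against 260 and 234 CPM in Ery, and was not called.

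Eryb against Ery gave 33 of 42 members called lower and none higher, with 65.8% of 9003 genes called lower and 6.81% higher. Of the cap genes 13 of 17 were called lower, with a median of -1.02 over the 17, and of the core genes 13 of 14, with a median of -1.46, beside -1.38 for all genes. EryP against Eryb gave 36 of 40 called lower and none higher, with 77.3% of 7275 genes called lower and 1.81% higher, and a 26S median of -1.88 that was 0.01 from the all-gene median of -1.89. The median 26S gene thus differed between EryP and Eryb by about as much as the typical gene, but core and cap genes differed. Of the 17 cap genes, 11 lay below the all-gene median in both libraries and 4 above it. Of the 14 core genes, 4 lay below it in both libraries and 8 above it. The core to cap quotient was higher in EryP than in Eryb, with log2 ratios of 0.38 and 0.48.

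Among the other lineages the 26S genes were nearly even. Against HPSC, none of the 42 members was called in Mo/KC, where 11.7% of 6236 genes were called higher and 16.2% lower. In G, Psmb8, Psmb9 and Psmd9 were called lower, 3 of 42 beside 12.3% of all genes, and none higher beside 8.4%. In Mk, Psmb8, Psmb9, Psmb10, Psme1 and Psme2 were called lower, 5 of 42 beside 13.4%, and none higher beside 10.7%. In EC the 5 genes named for Mk were called lower beside 17.1% of all genes, and Psmd12 was called higher beside 13.4%. In Hepa, Psmb8, Psmb9, Psme1, Psma1 and Psmd8 were called lower beside 29.6%, and none higher beside 10.1%. In each of these 5 comparisons the share of members called was no larger than that of all genes.

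The immune subunits were read as a share of the UMIs of all 6 catalytic genes. That share was highest in Mo/KC, with 39.0% (36.1 to 41.9) and 33.6% (31.1 to 36.1), then in HPSC with 30.2% (28.9 to 31.4) and 30.8% (29.5 to 32.1), and in G with 23.1% and 23.0%. The intervals of Mo/KC and HPSC overlapped in library 2. Ery stood at 7.62% and 9.94%, Hepa at 7.18% and 8.11%, Mk at 7.62% and 6.10% and EC at 5.11% and 3.95%. Eryb had 0.946% and 1.06%. EryP had 2.29% and 2.52% on 7 and 6 immune UMIs.

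**Figure D4:**
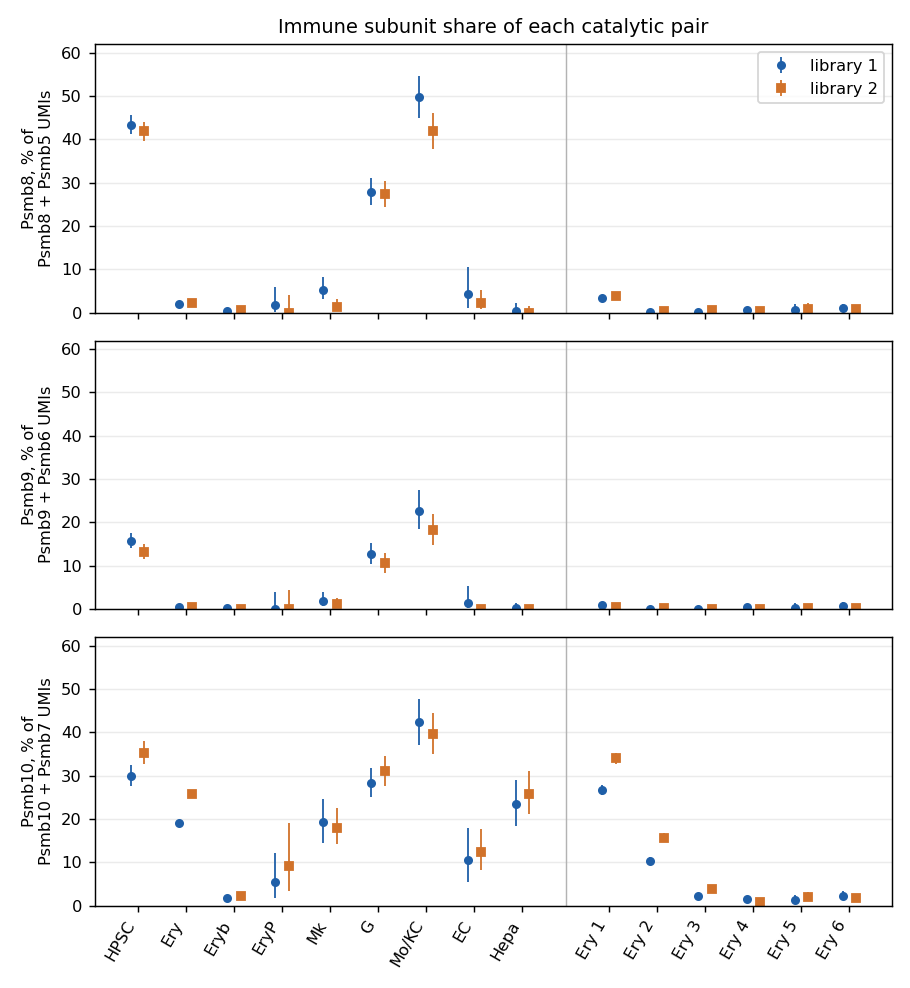
UMIs of each immune subunit as a percentage of the UMIs of that subunit and the constitutive subunit it replaces, in 9 cell types (left) and 6 erythroid subclusters (right), with 95% Clopper-Pearson intervals; circles are library 1 and squares library 2. Psmb8 and Psmb9 stand out in HPSC, G and Mo/KC, whereas Psmb10 is also present in Ery, Mk, EC and Hepa and in Ery 1 and Ery 2.

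Of the 3 immune genes, Psmb8 and Psmb9 shared a pattern, whereas Psmb10 was spread over more cell types. Psmb8, which replaces Psmb5, made up 43.3% and 41.9% of that pair in HPSC, 49.8% and 41.9% in Mo/KC and 27.9% and 27.3% in G, but 1.9% and 2.1% in Ery. In Hepa it was found with 1 of 242 and 0 of 261 UMIs of the pair, and 0 allows a share of up to 1.40%. Psmb9, which replaces Psmb6, followed the same cell types with 15.7% and 13.3% in HPSC, 22.7% and 18.3% in Mo/KC, 12.6% and 10.5% in G, and 0.539% and 0.394% in Ery. Psmb10, which replaces Psmb7, was at 42.3% and 39.6% in Mo/KC and 29.9% and 35.2% in HPSC, but also at 19% and 25.8% in Ery, 23.3% and 25.8% in Hepa, 19.2% and 18.0% in Mk and 10.5% and 12.4% in EC. Psmb10 therefore supplied most of the immune UMIs of Ery, 1947 of 2167 in library 1 and 2408 of 2617 in library 2.

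Within the erythroid lineage Psmb10 was lower at each step to Ery 3. Its level was 148 and 188 CPM in Ery 1, which was no lower than the 127 and 149 CPM of HPSC. It was 53.1 and 76.2 CPM in Ery 2, 9.10 and 12.9 CPM in Ery 3, and 4.57 and 1.82 CPM in Ery 6. Its mean log2 ratio of -5.85 between Ery 6 and Ery 1 was lower than that of any other member tested, and differed from the all-gene median by -2.79. Psmb8 was at 16.4 and 17.6 CPM in Ery 1 and at 0.871 and 1.38 CPM in Ery 2. The summed progenitor markers Myb and Cd34 were at 113 and 107 CPM in Ery 1, 21.1 and 25.2 CPM in Ery 2, and 503 and 478 CPM in HPSC. The 3 macrophage markers summed to 1.11 and 0.538 CPM in Ery 1 against 779 and 536 CPM in Mo/KC, with Adgre1 at 0 in library 2. The part of progenitor-like cells in the Psmb8 level of Ery 1 was not tested.

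The shares of cells with these genes were compared at equal total UMIs, globin included. Globin made up 1.59% and 2.94% of UMIs in HPSC but 36.7% and 59.2% in Eryb. Thinned Eryb cells therefore kept fewer UMIs of other genes than thinned HPSC cells, which lowers their shares. With each cell thinned to 3600 UMIs, which left out 2 HPSC, 155 Ery and 455 Eryb cells of library 1 and none of library 2 in these cell types, Psmb8 was found in 57.3% and 59.1% of HPSC and in 3.86% and 3.91% of Ery, against 0.357% and 0.360% of Eryb. Without thinning the shares were 93.9% and 90.4% of HPSC, 9.66% and 11.5% of Ery and 0.785% and 0.914% of Eryb. Psmb10 was found in 37.9% and 49.0% of thinned HPSC, 27.4% and 34.4% of thinned Ery and 1.90% and 1.33% of thinned Eryb. These thinned shares come from a single random draw. For Psmb10 the mean over draws was 35.9% and 40.6% of HPSC, 28.7% and 34.0% of Ery and 1.85% and 1.44% of Eryb. For Psmb8 that mean was 56.9% and 55.2% of HPSC, 3.62% and 3.84% of Ery and 0.507% and 0.365% of Eryb. Eryb served as the cell type in which these genes were near background, with medians of 5613 and 8982 UMIs per cell against 16053 and 14956 in HPSC. In barcodes of 1 to 50 UMIs, which hold free RNA, Psmb8 stood at 65.3 and 25 CPM and Psmb10 at 56.7 and 44.4 CPM.

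Genes of MHC class I presentation, which uses the peptides that the immune subunits cut, were listed beside them. Of 10 such genes 7 had enough UMIs in HPSC against Ery, and 6 were called higher in HPSC (Tap1, Tap2, Tapbp, B2m, H2-K1 and H2-D1), beside 23.4% of all genes. Tap1, the peptide transporter next to Psmb9, was at 14.8 and 14.1 CPM in HPSC against 1.21 and 1.5 CPM in Ery. B2m, the invariant chain, was at 803 and 708 CPM against 188 and 165 CPM. In Mo/KC against HPSC 5 of 8 were called higher, beside 11.7% of all genes, and Tap2 was called lower, beside 16.2%.

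The 4 activator genes fell into separate patterns. Psme1 and Psme2, the subunits of PA28 alpha-beta, together reached 852 CPM (784 to 924) and 741 CPM (685 to 800) in Mo/KC, 610 and 605 CPM in HPSC, 480 and 441 CPM in G, 400 and 344 CPM in Hepa and 315 and 293 CPM in Ery. The order of these 5 cell types was the same in both libraries. Mo/KC stood 2.71-fold and 2.53-fold above Ery. In the erythroid subclusters Psme1 went from 179 and 168 CPM in Ery 1 to 13.5 and 6.56 CPM in Ery 6 (mean log2 ratio -4.20), while Psme2 went from 194 and 173 CPM to 53.9 and 27.6 CPM (-2.25). The partners of 1 ring were thus not reduced alike.

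Psme3, which encodes PA28 gamma, was not called between Ery 6 and Ery 1, and as a share of UMIs it was higher in one library and lower in the other. It stood at 217 CPM in Ery 1 and 373 CPM in Ery 6 in library 1, and at 201 and 180 CPM in library 2, with log2 ratios of 0.78 and -0.16. Outside globin both libraries gave a higher value in Ery 6, with 889 against 219 and 835 against 206 CPM outside globin (log2 ratios 2.02 and 2.02). Per cell both gave a lower one, 1.74 against 5.71 UMIs and 1.51 against 5.19 UMIs (-1.71 and -1.78). Psme3 lay 3.37 above the all-gene median in log2, higher than 91.0% of genes. This distance is the same on every scale by construction, because a change of denominator shifts all genes alike. Psme4, for PA200, was alike, at 22.5 CPM in Ery 1 and 31.4 CPM in Ery 6 in library 1. In library 2 Psme4 was at 21.3 CPM in Ery 1 and 19.2 CPM in Ery 6, on at most 222 UMIs per group. Across the cell types Psme3 was highest in Eryb (284 CPM) in library 1 and in Ery (191 CPM) in library 2.

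**Figure D5:**
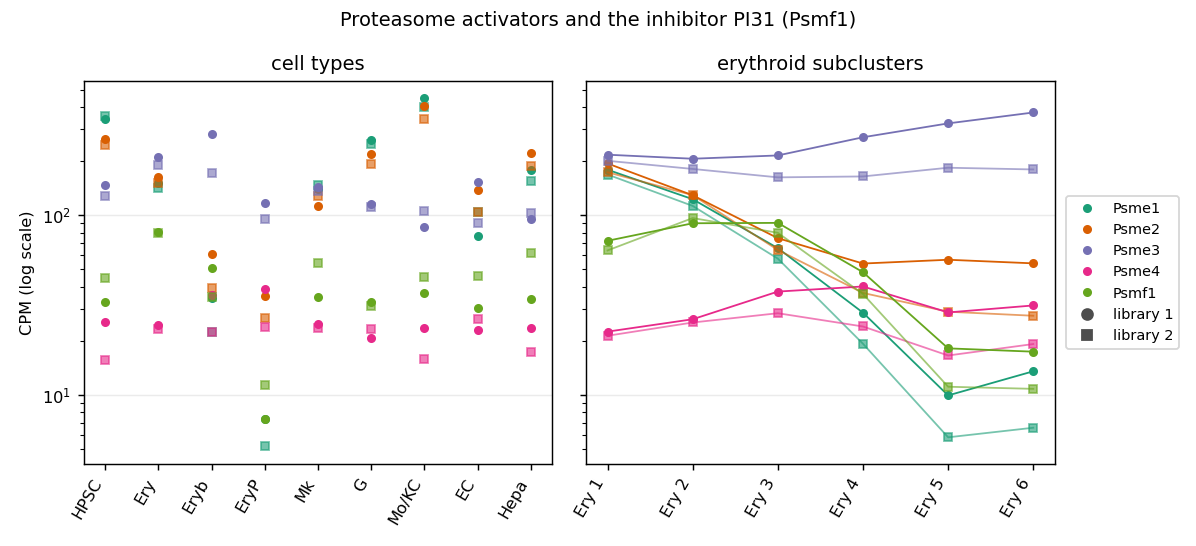
Levels of Psme1, Psme2, Psme3, Psme4 and Psmf1 in CPM on a log axis, in 9 cell types (left) and 6 erythroid subclusters (right); circles are library 1 and squares (paler) library 2, and lines join the subclusters of a library. Psme1 and Psme2 are highest in Mo/KC and lower in late subclusters, whereas Psme3 in Ery 6 is at 373 and 180 CPM against 217 and 201 CPM in Ery 1.

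Psmf1, for the inhibitor PI31, was highest in Ery with 80.8 and 79.5 CPM, against 33.1 and 44.5 CPM in HPSC. Among the subclusters it was at 72.0 and 63.6 CPM in Ery 1, 90.2 and 96.4 CPM in Ery 2, and 17.4 and 10.8 CPM in Ery 6 (mean log2 ratio -2.30).

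The tissue-restricted subunits were scarce. Psma8, a testis-type alpha subunit, had 264 and 220 UMIs over all cells. It was at 9.60 and 8.50 CPM in Ery and 10.5 and 9.69 CPM in Ery 1, against 0.703 and 0.101 CPM in Ery 6, where 4 UMIs and 1 UMI were counted. Psmb11, the catalytic subunit of the thymus, had 0 UMIs in either library.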

How the data were processed

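Per the labels and methods, cells of 1 liver were loaded as 2 technical replicate libraries. The authors' notes name bcl2fastq 2, Cell Ranger 2.1.1, the mm10 build and Seurat 3.2.0. The authors deposited matrices of raw counts of UMIs, which were not normalized, together with their cell type table. Cells of that table were kept (5480 and 5057), each taken to its library by the suffix of its name and matched to that library's barcodes. The series design text speaks of 2 suspensions. The chemistry end and the strand setting are not given in the sources used here.

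Counts were summed per library and cell group, and expressed as CPM. Log2 ratios were calculated per library and averaged. A gene was called at 1.5-fold or more in the same direction in both libraries, among genes with at least 50 UMIs over both groups in each library. No p-value was calculated, since the libraries are technical replicates of 1 animal. Doublets were removed by sorting and no caller was run. The ratio and interval steps were tested on simulated data. The members and gene lists were chosen with earlier results of these data known. Named were the activators, catalytic and restricted genes, and per class the genes of highest and lowest mean CPM over cell types and of the 2 highest and 2 lowest ratios between Ery 6 and Ery 1. Alternatives were other denominators, cell filters, free RNA subtraction and each library alone. Cct6a was not analysed here, and some genes of the partner and marker lists are not reported here. Promoter windows came from RefSeq (GRCm38.p6). The work ran in Python 3.11.15 with SciPy 1.17.1, and plots were drawn with Matplotlib 3.10.9.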

Additional observations from a re-analysis of the deposited data

Results flagged for a closer look

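Barcodes outside the cell table also carried proteasome transcripts. Barcodes that were not called as cells but held at least 1000 UMIs and 200 genes numbered 168 in library 1 and 3311 in library 2. The 168 barcodes had a 26S share of 5563 CPM, with a 95% Poisson interval from 5333 to 5801. The 3311 barcodes had a 26S share of 6202 CPM, with an interval from 6143 to 6262. These barcodes entered no comparison, and what they held was not tested. In barcodes of 1 to 50 UMIs the 26S share was 8154 CPM in library 1 and 6215 CPM in library 2.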

How the results depend on the processing

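Of 85 values recomputed with other denominators, filters and libraries, 70 moved by no more than the spread (standard deviation) between the libraries (for counts, by no more than 1.5 times), 15 moved further and none changed direction. Where a value is the mean of the 2 libraries, leaving out 1 library moves it by less than that spread by construction. Those values are among the 70 and do not show that a result is stable. With UMIs outside globin as denominator the mean log2 ratio of the 26S share was -0.31 for Eryb against Ery, -0.62 for Ery 6 against Ery 1 and -0.34 for EryP against Eryb, and 3 members (Psmd10, Psme3 and Psme4) were called higher and 18 lower in Ery 6, where 18.1% of genes were called higher and 61.8% lower and the all-gene median was -1.35. With UMIs per cell the ratios were -2.66, -4.39 and -1.89, with -0.89 for HPSC against Ery and 0.75 for PA28 alpha-beta in Mo/KC against Ery. Subtracting 10% free RNA gave -2.34 for EryP against Eryb, -0.49 for HPSC against Ery and -0.55 for the core to cap quotient of Ery 6 against Ery 1. Keeping cells with at least 1000 genes and under 10% mitochondrial UMIs gave -1.27 for EryP against Eryb. The shifts with other denominators follow from their construction, and for the others the cause was not tested. Leaving out either library gave ranges of -1.51 to -0.96 for Eryb against Ery, -2.77 to -1.89 for Ery 6 against Ery 1, -1.76 to -1.59 for EryP against Eryb, -0.47 to -0.42 for HPSC against Ery, -0.39 to -0.36 for the quotient, 33.6% to 39.0% for the immune share of Mo/KC, 7.62% to 9.94% for that of Ery, 1.34 to 1.44 for PA28 alpha-beta, 40 to 40 members called lower and 0 to 1 called higher, the 1 being Psme3 in library 1 alone. No paired analysis was possible because the libraries are replicates of 1 group and no test was made. EC, Hepa, Mo/KC and Mk held 20 to 79 cells in a library, which limits their values most.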
